A study of Arabidopsis thaliana with 2 samples.

Results

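The 5 polyubiquitin genes UBQ3 (AT5G03240), UBQ4 (AT5G20620), UBQ10 (AT4G05320), UBQ11 (AT4G05050) and UBQ14 (AT4G02890) of Arabidopsis thaliana were described by the nucleosomes listed in and around them. They were chosen by locus identifier, as 5 of 27444 nuclear protein-coding genes in the gene table. The list held 39 nucleosomes centred in these genes and 26 centred within 1 kb on either side, 65 of 397452 in all. Chromatin of long-day seedlings, 2 to 3 weeks old, had been cut with micrococcal nuclease (MNase), which digests DNA between nucleosomes, and protected DNA had been taken from a 2% agarose gel by size. There was 1 library from nrpe1, a strain named for the major RNA polymerase V subunit, and 1 from the Col-0 strain. The list pools both and names no genotype for any nucleosome, so nrpe1 and Col-0 were not compared and there were no replicates. Library depths are unknown, and the labels give no allele for nrpe1.

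Ubiquitin is a small protein that is joined to other proteins, often to mark them for destruction by the proteasome. Polyubiquitin genes code for several ubiquitin units head to tail in 1 open reading frame, and proteases cut the product into single ubiquitins. Each unit takes 76 codons, so the coding DNA repeats every 228 bp. All 5 members are known to code for the same ubiquitin. UBQ10 is known for high expression in most plant tissues, and its promoter is widely used to drive transgenes.

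The members fell on both sides of the typical gene in how many nucleosomes were listed. UBQ10 held 13 centres, or 5.57 per kb, more than 83.5% of protein-coding genes. UBQ4 held 10, or 5.11 per kb, more than 75.8% of them. Both thus stood above the upper quartile of 5.07 per kb. UBQ14 held 7, or 4.28 per kb, close to the median gene at 4.03 per kb. UBQ11 held 4, or 2.79 per kb, and UBQ3 held 5, or 2.69 per kb, and both stood below the lower quartile of 3.05 per kb. So 2 of 5 members lay above the upper quartile, against 25% of all protein-coding genes, and 2 of 5 below the lower one, against 25%. Which members passed a quartile depended on how nucleosomes were assigned. With any overlap counted instead of the centre, UBQ10 exceeded 86.5% of protein-coding genes, UBQ14 79.8% and UBQ4 73.0%. In that setting UBQ11 exceeded 33.0% and UBQ3 16.4%. The counts are small, and the 95% Poisson intervals of UBQ10 (2.97 to 9.53 per kb) and UBQ3 (0.875 to 6.29 per kb) overlap. These intervals cover counting error only. Without replicates, the order of the 5 densities was not tested.

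The share of each gene covered by listed nucleosomes followed the same order. It was 67.2% in UBQ10, 58.9% in UBQ4, 54.9% in UBQ14, 42.2% in UBQ11 and 38.4% in UBQ3, against a median of 51.5% over protein-coding genes. UBQ10 is the longest member at 2332 bp and UBQ11 the shortest at 1434 bp. UBQ3, at 1856 bp, and UBQ4, at 1957 bp, are of nearly the same length, yet the list held 5 centres in UBQ3 and 10 in UBQ4.

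**Figure D1:**
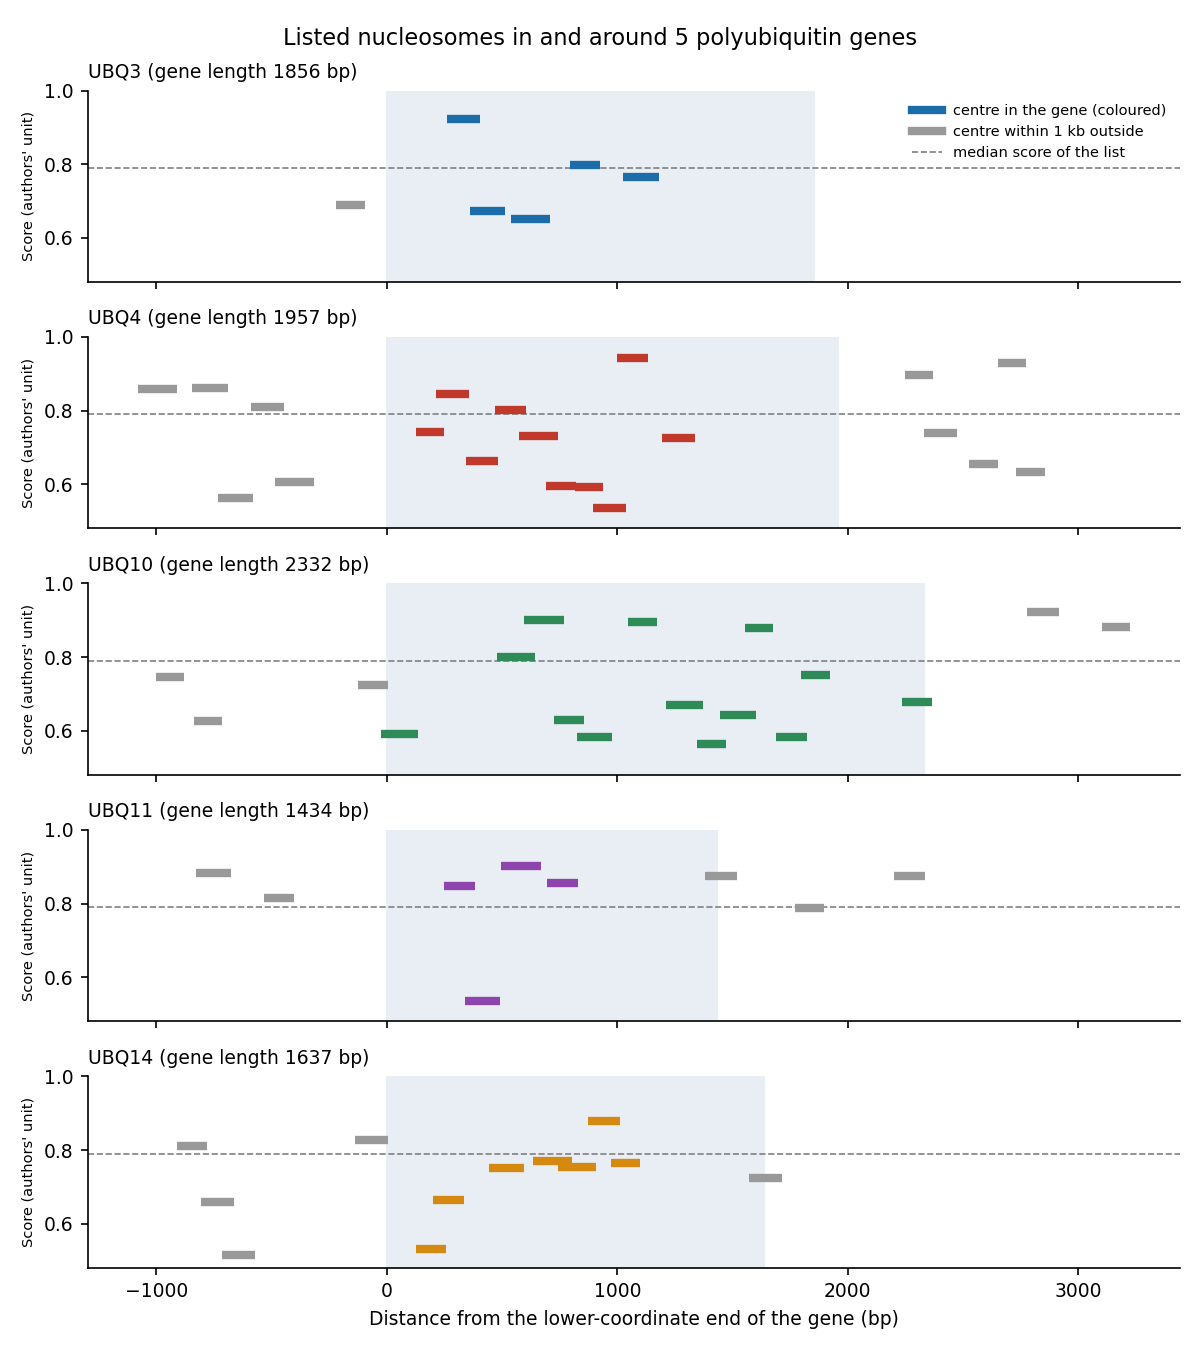
Listed nucleosomes in and around each polyubiquitin gene, drawn to scale by distance from the lower-coordinate end of the gene (bp, horizontal) and by the authors' score (vertical). Coloured bars have their centre in the gene, grey bars within 1 kb outside it, shading marks the gene and the dashed line the median score of the list, 0.790; in 4 of 5 genes the last part of the shaded gene holds no coloured bar.

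UBQ4 carried the longest run of overlapping nucleosomes. Its first 9 nucleosomes each overlapped the next, in a chain of 1007 bp on chromosome 5 from 6973178 to 6974185. Their centres stood 90 to 127.5 bp apart, less than the width of 1 listed nucleosome in the gene, whose median was 137 bp. A pooled list does not show whether overlapping nucleosomes were present together on the same DNA molecule. Densities per kb count each overlapping entry separately. Scores in the chain ran from 0.535 to 0.944, and the highest belonged to the last of the 9, at 6974052 to 6974185. The remaining nucleosome, at 6974248 to 6974392, stood apart by a gap of 63 bp. UBQ4 was the 1 member of 5 with a chain of 5 or more, against 17.8% of all protein-coding genes and 15.9% of those of 1 to 3 kb. Chains of 9 or more occurred in 1.23% of the 16057 protein-coding genes of 1 to 3 kb. That length was taken from UBQ4 itself, the member with the longest chain, so this share is no test of the members.

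UBQ10 was split into shorter chains. On chromosome 4 a chain of 4 nucleosomes ran from 2718455 to 2718955, a lone nucleosome lay at 2719022 to 2719150, a second chain of 4 ran from 2719187 to 2719654, and a pair followed to 2719900. The steps between centres within these chains were 92 to 121.5 bp. Only 4 of the 13 nucleosomes scored at or above the median of the list, at 0.801, 0.900, 0.896 and 0.879. Of these, 2 stood in the first chain, 1 was the lone nucleosome and 1 closed the second chain, and the other nucleosomes of both chains scored 0.565 to 0.670. Listed nucleosomes also lay over both ends of the gene, at 2717953 to 2718114 and at 2720214 to 2720345. The one at the lower end overlapped, by 29 bp, a neighbour at 2717851 to 2717982 that was centred outside the gene and reached over the same end. Nucleosomes over gene ends were listed in other members too, centred just outside the gene, at 2589385 to 2589522 over the upper end of UBQ11 and at 1278393 to 1278535 and 1280102 to 1280243 over the lower and upper ends of UBQ14.

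UBQ14 held 2 chains with a single nucleosome between them. A pair at 1278656 to 1278867 on chromosome 4 carried the lowest scores of the gene, 0.532 and 0.665. A chain of 4 from 1279166 to 1279628 scored between 0.754 and 0.879. UBQ14 shares 189 bp at its lower end with AT4G02880, a protein-coding gene, and no centre counted for UBQ14 lay in that shared stretch.

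UBQ3 and UBQ11 held 1 overlapping pair each, and their other nucleosomes stood apart. In UBQ11 the pair at 2588253 to 2588495 on chromosome 4 joined a score of 0.848 to one of 0.534, and the other nucleosomes, at 2588500 to 2588671 and at 2588698 to 2588834, scored 0.902 and 0.857. In UBQ3 the pair at 771919 to 772173 on chromosome 5 joined scores of 0.922 and 0.673. It was followed by nucleosomes at 772201 to 772370, 772457 to 772583 and 772683 to 772842, whose centres stood 187.5, 234.5 and 242.5 bp from the one before.

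Over the 5 genes, 30 of 39 nucleosomes overlapped a listed neighbour, or 76.9% (95% Clopper-Pearson interval 60.7 to 88.9%), against 62.5% in protein-coding genes. An overlap marks both nucleosomes of a pair, and 9 of the 30 belong to UBQ4, so this interval covers less than the true uncertainty. The share was 90.0% in UBQ4, 85.7% in UBQ14 and 84.6% in UBQ10, but 50% in UBQ11 and 40% in UBQ3. The 3 genes with the more frequent overlaps were thus also the 3 with the higher densities, and both values come from the same counts. With an overlap of 40 bp or more required, the share was 48.7% in the members and 36.6% in protein-coding genes. The members' nucleosomes were 121 to 171 bp wide, and their median width was 141 bp, against 138 bp over the list.

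Median scores also differed between the members, but each rests on 4 to 13 nucleosomes and the ranges of single scores overlapped. Single scores ran from 0.534 to 0.902 in UBQ11 and from 0.565 to 0.900 in UBQ10. The score is the authors' own measure, with no definition in the labels or headers, and it ranks nucleosomes within the list. UBQ10 had a median score of 0.670, higher than 3.18% of protein-coding genes, and UBQ4 one of 0.728, higher than 14.7% of them. UBQ14, at 0.754, and UBQ3, at 0.764, stood closer to the median gene at 0.790. UBQ11 alone among the 5 exceeded it, at 0.852, higher than 87.7% of protein-coding genes. Median scores below the lower quartile were found in 2 of 5 members, against 25% of protein-coding genes, and below the median gene in 4 of 5, against 50%.

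Counts of higher-scoring nucleosomes therefore ranked the genes differently. Scores at or above the list median of 0.790 belonged to 4 of 13 nucleosomes in UBQ10, 3 of 10 in UBQ4, 3 of 4 in UBQ11, 2 of 5 in UBQ3 and 1 of 7 in UBQ14. Restricted to these nucleosomes, UBQ11 stood at 1.06 times the median protein-coding gene and all other members below it. UBQ14 stood at 0.311 times the median gene there, against 1.06 times in the full list.

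**Figure D2:**
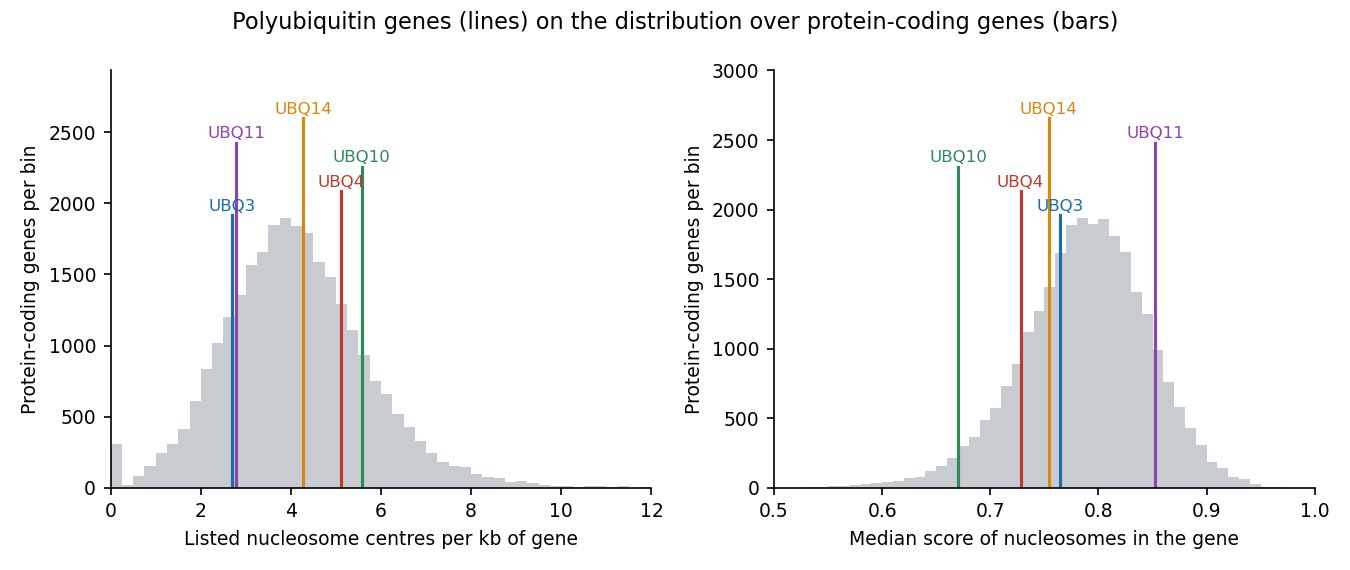
Number of listed nucleosome centres per kb (left) and median score (right), each axis against the number of protein-coding genes per bin (grey bars), with 1 coloured line per polyubiquitin gene whose height has no meaning and with densities over 12 per kb not drawn. UBQ10 combines the highest density of the 5, 5.57 per kb, with the lowest median score, 0.670, while UBQ11 has 2.79 per kb and the highest median score, 0.852.

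Distances between centres were set against the repeat length of 228 bp, with a distance within 10 bp of it counted as near. Between successive centres 1 of 34 distances was near, 234.5 bp in UBQ3, or 2.94% (95% Clopper-Pearson interval 0.0744 to 15.3%) against 3.74% over protein-coding genes. Having such a step in 1 of 5 members compares with 26.1% of protein-coding genes. The median step between successive centres was 121 bp in the members and 155 bp in protein-coding genes.

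Between next-but-one centres, meaning a nucleosome and the second one after it, distances near 228 bp were more frequent. Of 29 such distances 8 were near, or 27.6% (95% Clopper-Pearson interval 12.7 to 47.2%), against 6.13% over protein-coding genes. Neighbouring distances of this kind share a step, so the interval covers less than the true uncertainty. The measure was also taken up after the rows had been seen. All next-but-one distances had a median of 251.5 bp in the members and 339.5 bp in protein-coding genes. The near ones were 226.5, 218.5 and 219 bp in UBQ4, 230.5, 219.5, 232 and 231 bp in UBQ10, and 224 bp in UBQ14. UBQ3 and UBQ11 had none. At least 1 near distance was found in 3 of 5 members, against 33% of protein-coding genes with 3 or more centres. Without UBQ4 and UBQ10 together, 1 of 10 distances was near.

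Of the 8 near distances, 7 lay within a chain. Within chains the members' next-but-one distances numbered 13, with quartiles of 211 and 230.5 bp and a median of 219.5 bp. Over protein-coding genes the same distances had a median of 204.5 bp and quartiles of 187 and 225 bp. Near distances made up 7 of 13 in the members, or 53.8% (25.1 to 80.8%), and 19.1% in protein-coding genes. The step between overlapping neighbours had a median of 107 bp in the members and 101.5 bp in protein-coding genes. Distances in 1 chain share centres, so the interval covers less than the true uncertainty, and no test of the difference was made. The positions of the repeats in the genes were not used here, and a part of the repeats in these distances was not tested. Over all pairs of centres within a member, 11.3% of 160 distances lay near a multiple of 228 bp. In protein-coding genes the share was 8.48%, over pairs up to 2332 bp apart, the length of the longest member. The pairs were not matched by separation.

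**Figure D3:**
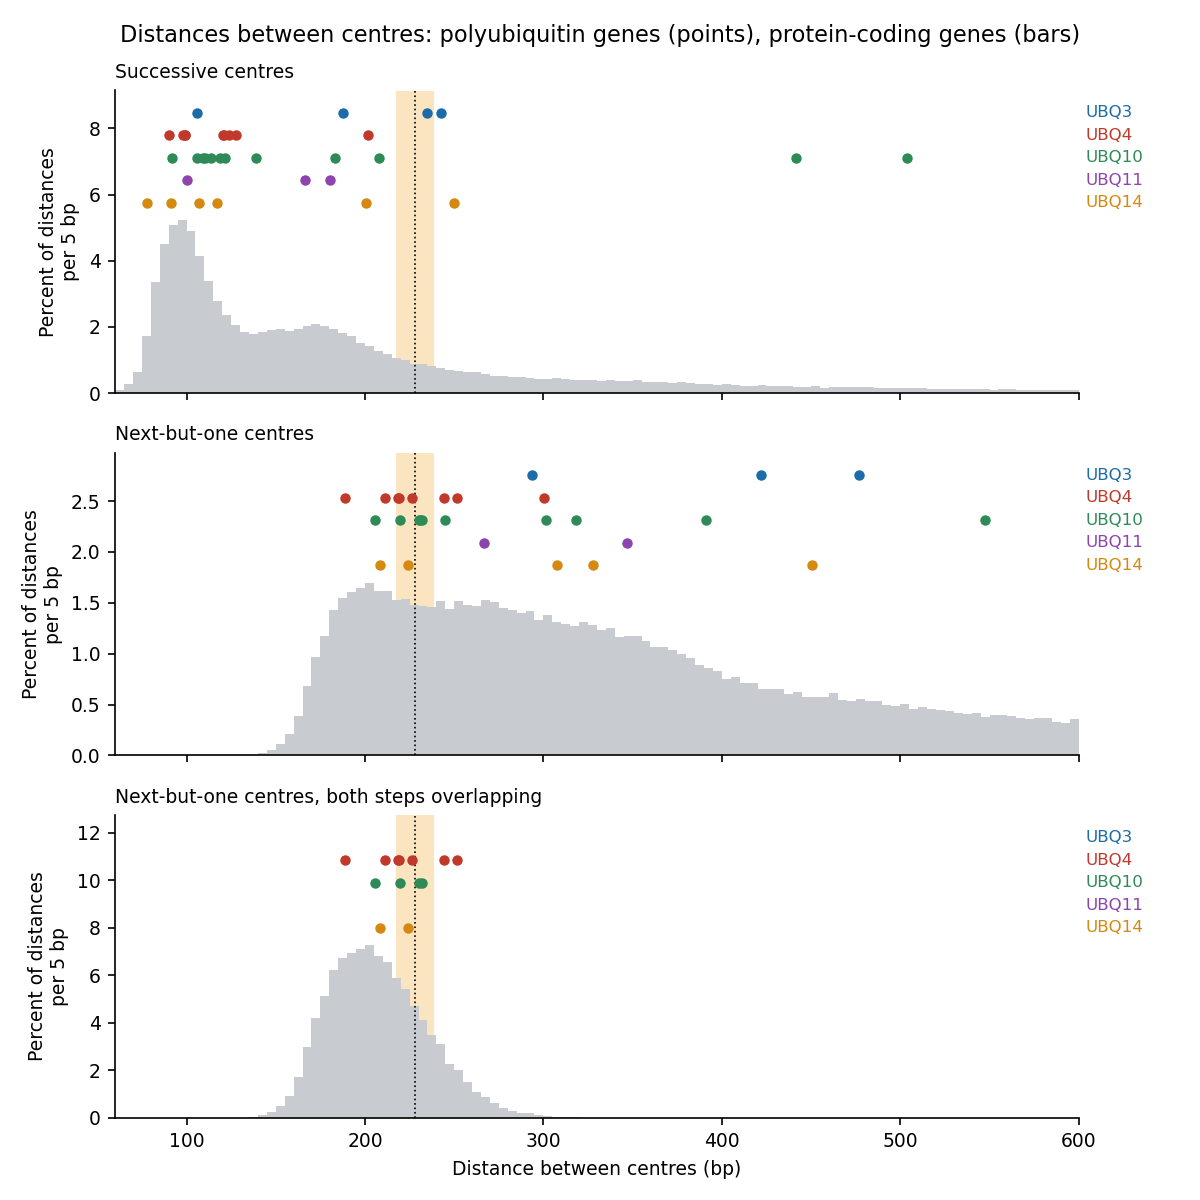
Distances between centres in bp for successive centres (top), next-but-one centres (middle) and next-but-one centres in chains (bottom); points are distances in the 5 genes and grey bars the percent of distances over protein-coding genes per 5 bp. The shaded band marks 228 bp with 10 bp on either side; it holds 1 of 34 points at the top, 8 of 29 in the middle and 7 of 13 at the bottom, and distances over 600 bp are not drawn.

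In 4 of 5 members the upper end of the gene by coordinate held no listed nucleosome centre. With each gene cut into 4 equal parts, the uppermost part held 0 centres in UBQ3, UBQ4, UBQ11 and UBQ14 and 3 in UBQ10, while the lowermost part held between 1 and 3 in each member. An outer part without a centre, at either end, occurred in 26.2% of protein-coding genes of 1 to 3 kb. The unlisted stretch inside the gene measured 673 bp in UBQ3, 617 bp in UBQ4, 550 bp in UBQ11 and 473 bp in UBQ14. These stretches passed 400 bp in 4 of 5 members, against 49% of protein-coding genes of 1 to 3 kb. The longest unlisted stretch of UBQ10, 340 bp, lay instead near its lower end, between 2718114 and 2718455. Whether upper ends are starts or ends of transcription was not determined, because strand was not used here.

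Flanks of 1 kb on both sides held between 1 and 10 centres per gene. UBQ3 had 1 centre in its flanks, or 0.5 per kb, more than 4.73% of protein-coding genes. Its unlisted upper stretch went on past the gene for 1693 bp in all, from 772842 to 774536, and reached AT5G03250, a protein-coding gene 858 bp away. UBQ4 had 10 centres in its flanks, or 5 per kb, more than 93.0% of protein-coding genes. All 10 lay in neighbouring genes, 5 in AT5G20610, which lies 57 bp from UBQ4, and 5 in GER3, a germin-like protein gene 19 bp away. UBQ10, UBQ11 and UBQ14 had 5 flanking centres each, or 2.5 per kb, equal to the median of protein-coding genes; in UBQ10 the flanks held 0.494 times the mean count of protein-coding genes at 500 bp and 1.03 times at 1 kb. In UBQ14 the empty upper stretch, from 1279628 to 1280102, took in the whole of AT4G04335, a long non-coding RNA gene of 343 bp, none of which was covered.

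Other genes of ubiquitin supply and attachment ran from 1.93 to 9.29 per kb. Over 19 such genes the median was 3.54 per kb, against 4.28 per kb in the members and 4.03 per kb in all protein-coding genes. The diverged polyubiquitin genes, whose units depart from the common ubiquitin sequence, were the densest class, from UBQ8 (AT3G09790) with 12 centres at 5.02 per kb to UBQ9 (AT5G37640) with 9 at 9.29 per kb. UBQ9 exceeded 99.5% of protein-coding genes and was 94.7% covered, with a chain of 8. At 969 bp UBQ9 is shorter than every member. UBQ8, at 2389 bp, stood below UBQ10 and UBQ4 in density. Genes for ubiquitin fused to a ribosomal protein ran from UBQ1 (AT3G52590) with 3 centres at 1.93 per kb to UBQ6 (AT2G47110) with 4 at 5.63 per kb. Genes for ubiquitin fused to the ubiquitin-like protein RUB held 7 centres each, RUB1 (AT1G31340) at 3.64 and UBQ7 (AT2G35635) at 4.35 per kb.

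The E1 enzymes, which activate ubiquitin, were UBA1 (AT2G30110) with 23 centres at 4.26 per kb and UBA2 (AT5G06460) with 26 at 5.69 per kb. The E2 enzymes, which carry it to its target, had a median of 2.18 per kb and ran from UBC28 (AT1G64230) with 4 centres at 1.95 per kb to UBC1 (AT1G14400) with 10 at 4.30 per kb. Of the 7 E2 genes 5 lay below the lower quartile of protein-coding genes, against 25% of all. Of the 19 genes as a whole 8 lay below the lower quartile and 4 above the upper one. Next-but-one distances near 228 bp in chains made up 8 of 27 in these 19 genes, or 29.6% (13.8 to 50.2%). The share was 53.8% in the members and 19.1% in protein-coding genes. In chains or not, 5 of the 19 genes had a near next-but-one distance, against 33% of protein-coding genes with 3 or more centres. They were all 3 diverged polyubiquitin genes, with 2 of 10 in UBQ8 and 2 of 7 in UBQ9, and UBA2 (4 of 24) and UBC1 (1 of 8). No test of these differences was made.

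**Figure D4:**
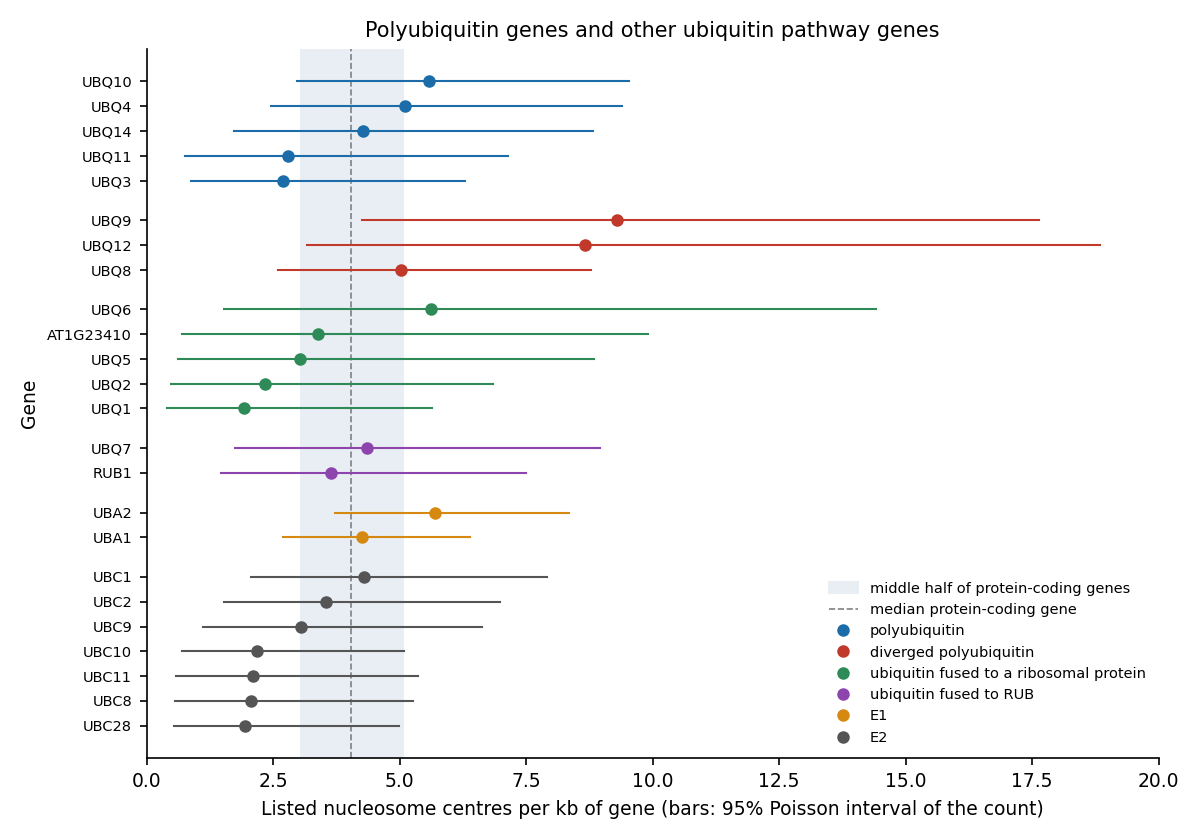
Listed nucleosome centres per kb of gene (horizontal) for the 5 polyubiquitin genes at the top and 19 other ubiquitin pathway genes by class (vertical), with 95% Poisson intervals of the count as lines, the middle range of protein-coding genes between quartiles shaded and their median dashed. The members span 2.69 to 5.57 per kb, UBQ9 reaches 9.29 per kb and UBC28 lies at 1.95 per kb; most intervals are wider than the shaded range.

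The genes most like the members' medians in density, median score, overlapped share and covered share, of 21009 with 5 or more centres, were AT5G11840, AT3G59230 and AT3G53960. They lay 0.0839, 0.147 and 0.172 SD units away. Among the members, UBQ14 lay 0.0462, UBQ4 0.872, UBQ10 2.07, UBQ3 2.48 and UBQ11 2.79 SD units from the same medians. On density, score and covered share the median of the 5 is the value of UBQ14 itself, so nearness to the medians is largely nearness to UBQ14.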

How the data were processed

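Micrococcal nuclease (MNase) sequencing was done on 1 nrpe1 and 1 Col-0 library. The deposited file is 1 pooled list that gives, for each nucleosome, its chromosome, both positions in bp and a score. How the authors defined the deposited score is not stated in the file headers, so it served for ranking alone. Bowtie and TAIR10 are named in the submitters' processing notes. Not given in the sources used here were the Bowtie version, the caller, the handling of reads that match several places and the joining of the libraries. The depth per library is unknown, 0 columns hold a single library, and no test across samples was possible. Intervals cover counting error only.

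Genes and their lengths came from a RefSeq gene table (assembly TAIR10.1), and 24 of 24 described genes were matched by locus identifier. Strand and exons were not used here, so gene ends are called lower and upper by coordinate. The trough of centres just outside protein-coding genes lay between -90 and -30 bp on each of the 5 chromosomes. Positions are printed as listed. A width is end minus start. A nucleosome belongs to a gene by its centre, and neighbours overlap if they share 1 bp or more. A chain is a run of nucleosomes centred in a gene, each overlapping the one before. The repeat length of 228 bp is 76 codons of 3 bases, from general knowledge of ubiquitin. Counts, successive distances near the repeat, overlaps and longest chains were checked on 1 simulated list. The other measures had no such check. Python 3.11.15, numpy 2.4.6, pandas 2.3.3 and scipy 1.17.1 were used.

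The members and lists were chosen with earlier results of these data known. All 5 members are named, and of each class of other pathway genes the lowest and highest by density. The most alike genes are the 3 with 5 or more centres nearest to the members' medians of density, score, overlapped share and covered share, each scaled by its SD. Next-but-one distances, outer parts of genes and unlisted stretches were taken up after the rows had been seen. Alternatives were scores at or above the list median, assignment by any overlap, and other flanks, overlaps and tolerances.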

Additional observations from a re-analysis of the deposited data

How the results depend on the processing

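Over 19 results and 52 alternative values, 46 stayed within the interval set around the reported value and 6 left it. That interval was the 95% counting interval, except for median scores. For those it came from the ranked scores, and in UBQ3, UBQ11 and UBQ14 it ran from the lowest to the highest. The scale from genes of 1 to 3 kb could change little, as their median was 4.01 per kb against 4.03 over all. The intervals are wide, so staying within one does not show that a result is stable. Scales from genes of 1 to 3 kb, next-but-one distances, those in chains and leaving out UBQ4 or UBQ10 were chosen after seeing the data. Among nucleosomes scoring at or above the list median, UBQ14 went to 0.311 times the median protein-coding gene. No distance near the repeat was left there between successive (0 of 8) or next-but-one centres (0 of 4). Taking 3 counts as the most that a 0 may hide gives upper limits of 37.5% and 75%, which are rough at such small numbers. Over protein-coding genes the shares in that set were 3.81% for successive and 0.793% for next-but-one centres. Lower-scoring nucleosomes drop out there, so next-but-one centres are other pairs than in the full list. The 0 of 4 therefore cannot tell the members from other genes. In that set UBQ4 (0.780), UBQ10 (0.873), UBQ11 (1.06) and UBQ14 also turned to the other side of the median gene, and UBQ3 stayed below it. An overlap of 40 bp or more lowered the overlapped share to 48.7%. Within 5 bp of the repeat 0 of 34 successive distances were left, and without UBQ4 and UBQ10 together the next-but-one share was 1.63 times that of protein-coding genes, against 4.50 times with them. It was 3.88 times without UBQ4, 3.62 times without UBQ10 and 2.82 times in chains. The flanks of UBQ3 held 0.494 times the mean count of protein-coding genes at 500 bp, 0.206 times at 1 kb and 0.720 times at 2 kb, and those of UBQ10 0.494, 1.03 and 0.720 times. No paired analysis was possible because each genotype has 1 library and the list separates none. Counts of 4 to 13 centres per gene and the unknown depth limit every comparison between members.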
